A study of Mus musculus with 6 samples.

Results

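Chromosome 8 of mouse embryonic stem (ES) cells was followed in 6 Hi-C libraries through its 50 kb bins with at least 20 contacts in every library. This rule kept 2510 of the 2520 bins of chromosome 8 that held any contact (99.6%), out of 45645 such bins on all 19 autosomes. The 2510 bins lie between positions 3100001 and 129350000 of chromosome 8 in mm10 and hold the start coordinates of 1037 of its 1043 protein-coding genes. The chromosome was selected on its coverage, the contacts per bin, which in these same libraries exceeded that of every other autosome, so its coverage is described below without a test. Of the 6 libraries, 3 came from ES cells with the genotype GFP-CTCF-Del8 (Del8), whose CTCF lacks zinc finger 8 and carries a green fluorescent protein tag, and 3 from ES cells labelled wild type (WT). Both groups are of strain 129, and the series' design text calls the replicates biological and sets the mutant against cells with GFP-CTCF. The labels do not say whether the WT cells carry the tag, how the proteins are driven, or whether each line is 1 clone.

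The zinc finger protein CTCF recognizes a long DNA motif and halts cohesin as it extrudes loops, and the halted loops appear in Hi-C maps as boundaries that contacts cross less often. In Hi-C, crosslinked chromatin is cut, here with MboI at GATC, and the ends are filled in with biotin-dATP and ligated within the nucleus, so that each sequenced ligation counts as 1 contact between a pair of bins. The contacts that a chromosome collects depend on how many copies the cells hold, on how many restriction sites it has and on how much of it can be mapped. Gain of chromosome 8 is a common change of mouse ES cells in culture. The number of copies was not measured in these libraries, and its part in the coverage was not tested.

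The promoters of 4 genes of chromosome 8 are shown because the bins that hold them include a boundary that weakened in Del8 (Sin3b and Tom1), a boundary that strengthened in Del8 (Rhou) and the bin of a developmental regulator whose insulation score fell (Sall1). Each runs from 250 bases before to 50 bases after the gene's start, 5′ to 3′ on the gene's strand, from RefSeq on GRCm38.p6. Of the promoters that the table lists for Sall1, the one farthest upstream is shown. Capitals mark the MboI site GATC and the core AGGNGGC of the CTCF motif, which was searched on both strands. The core and GATC overlap nowhere in these sequences.
Sin3b (chr8:72723020-72723319, plus strand): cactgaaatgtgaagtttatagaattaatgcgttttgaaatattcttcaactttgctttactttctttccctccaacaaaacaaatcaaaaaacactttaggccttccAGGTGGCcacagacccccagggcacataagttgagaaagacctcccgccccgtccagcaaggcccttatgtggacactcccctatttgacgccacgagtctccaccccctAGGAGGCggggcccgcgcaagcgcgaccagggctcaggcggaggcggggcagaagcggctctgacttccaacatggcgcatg
Tom1 (chr8:75033436-75033735, plus strand): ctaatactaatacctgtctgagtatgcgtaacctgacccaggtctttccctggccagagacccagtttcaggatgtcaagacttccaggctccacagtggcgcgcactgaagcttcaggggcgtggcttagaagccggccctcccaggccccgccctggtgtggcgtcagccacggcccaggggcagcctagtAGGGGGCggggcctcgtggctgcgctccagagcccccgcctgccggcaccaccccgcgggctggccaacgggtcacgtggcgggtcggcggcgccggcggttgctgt
Rhou (chr8:123653679-123653978, plus strand): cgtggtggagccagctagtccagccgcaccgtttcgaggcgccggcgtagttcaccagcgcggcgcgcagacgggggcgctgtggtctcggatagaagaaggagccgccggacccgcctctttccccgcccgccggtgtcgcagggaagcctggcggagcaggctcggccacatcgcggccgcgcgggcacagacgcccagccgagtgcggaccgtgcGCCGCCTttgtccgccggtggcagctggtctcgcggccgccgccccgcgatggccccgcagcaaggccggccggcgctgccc
Sall1 (chr8:89044113-89044412, minus strand): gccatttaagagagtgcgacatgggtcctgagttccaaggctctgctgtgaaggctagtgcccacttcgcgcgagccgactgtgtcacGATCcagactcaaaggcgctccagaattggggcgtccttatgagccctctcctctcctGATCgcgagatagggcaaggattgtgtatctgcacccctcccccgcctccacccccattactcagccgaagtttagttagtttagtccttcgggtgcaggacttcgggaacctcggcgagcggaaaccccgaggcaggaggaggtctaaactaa
The Sin3b promoter held 2 copies of the core and no GATC, and those of Tom1 and Rhou held 1 copy each and no GATC. The Sall1 promoter held 2 GATC sites and no core. The RefSeq table had promoters for 721 of the 1037 genes. It lists 1442 promoters on chromosome 8, which belong to 1204 genes of all kinds and not to the protein-coding ones alone. Of these 1442 promoters, 49.7% held GATC and 29.8% held the core, against 47.6% and 29.4% of 29954 promoters on 17 other autosomes. Their mean GC content was 55.0% on chromosome 8 and 53.9% on the other autosomes. The share with GATC was the highest among the 18 autosomes counted, ahead of 48.9% on chromosome 14, and the share with the core lay amid those of the others.

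The libraries differed in depth and were not alike within the WT group. They held 66266759, 46925260 and 38088173 contacts in Del8 replicates 1 to 3, and 24038030, 24512722 and 36233407 contacts in WT replicates 1 to 3. WT replicates 1 and 2 stood apart because many weakly covered bins were short of contacts in them. A bin was called short in a library if its coverage, scaled to that library's well-covered bins, was less than 0.5 of the third highest value over the 6 libraries, and usable if it was short in none.

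Chromosome 8 had more contacts per bin than any other autosome in each of the 6 libraries. Its median bin held 3312, 2394 and 2055 contacts in Del8 replicates 1 to 3, and 1612, 1567 and 1949 contacts in WT replicates 1 to 3. The median bin of the other 18 autosomes held 2165, 1553 and 1318 contacts in the Del8 libraries, and 937, 908 and 1243 contacts in the WT libraries. As a ratio to the other autosomes, chromosome 8 stood at 1.53, 1.54 and 1.56 in Del8 and at 1.72, 1.73 and 1.57 in WT. The mean ratio was 1.54 ± 0.015 in Del8 and 1.67 ± 0.090 in WT (SD, n = 3 each). The ratios of the 3 Del8 libraries and of WT replicate 3 lay close together, and WT replicates 1 and 2 were higher. Chromosome 11 was the next autosome, with ratios between 1.33 and 1.46 over the 6 libraries.

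**Figure D1:**
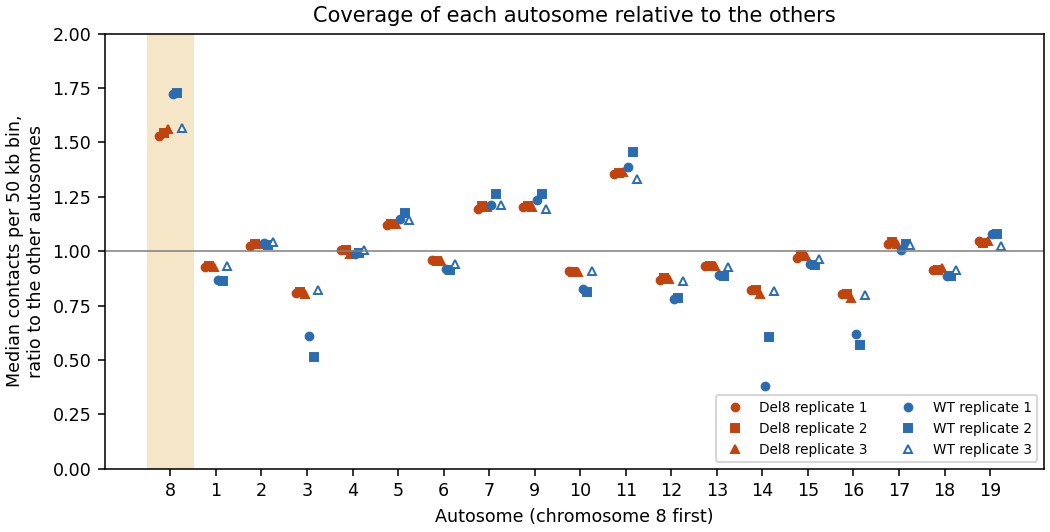
Median contacts per 50 kb bin of each autosome over that of all other autosomes (y axis), for the 3 Del8 and the 3 WT libraries (points). Chromosome 8, drawn first, sits between 1.53 and 1.73 and above every other autosome in each library.

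In the total of contacts, chromosome 8 took 7.99, 8.08 and 8.46% of autosomal contacts in Del8, against 10.1, 9.96 and 8.24% in WT. WT replicate 3 fell among the Del8 libraries in this measure. Part of the excess over the other autosomes went with the choice of bins. Among usable bins, which were 2242 of 2510 on chromosome 8 (89.3%) and 25579 of 43135 elsewhere (59.3%), the ratio was 1.26 as the Del8 mean and 1.33 as the WT mean. The screen takes out weakly covered bins, which were more frequent on the other autosomes.

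The excess was present in gene-poor and gene-dense bins alike. In the 1828 bins of chromosome 8 without a gene start coordinate, coverage relative to such bins elsewhere was 1.46, 1.47 and 1.52 in Del8, and 2.02, 1.98 and 1.505 in WT. In the 31 bins with 4 or more genes it was 1.56, 1.57 and 1.53 in Del8, and 1.60, 1.63 and 1.61 in WT. WT replicates 1 and 2 were far above the other libraries in the bins with no gene, while in these gene-dense bins all 6 libraries lay between 1.53 and 1.63. Bins with 1 gene ranged from 1.60 to 1.63 in Del8 and from 1.66 to 1.72 in WT, and bins with 2 to 3 genes from 1.61 to 1.62 in Del8 and from 1.63 to 1.69 in WT. Chromosome 8 was not gene-rich: 27.2% of its bins held a gene start coordinate, against 29.8% on the other autosomes. With every bin set against bins of as many genes, chromosome 8 stood at 1.54, 1.53 and 1.55 in Del8 and at 1.88, 1.86 and 1.56 in WT.

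Coverage varied along chromosome 8 by more than its distance from the other autosomes. In 26 windows of 5 Mb, the gene-matched ratio ran from 0.829, 0.840 and 0.845 in the lowest window to 3.09, 3.12 and 3.06 in the highest in Del8. In WT the lowest window stood at 1.01, 0.619 and 0.861, and the highest at 3.24, 3.53 and 3.08. The lowest window was at 50 to 55 Mb in all 6 libraries, with 9 genes in 100 bins, and the highest was at 120 to 125 Mb in every library except WT replicate 1, where it was at 115 to 120 Mb. Between 23 and 26 of the 26 windows lay above the median of the 431 windows of other autosomes, depending on the library. Between 9 and 16 exceeded their 95th percentile, and 3 to 8 exceeded the highest window found on any other autosome. The stretch at 10 to 15 Mb was also high, at 2.62, 2.63 and 2.61 in Del8 and 2.95, 3.21 and 2.63 in WT. The windows from 105 Mb to the end lay between 1.96 and 3.53 over the 6 libraries. The raised coverage was thus uneven. The window at 100 to 105 Mb stood at 1.003, 0.999 and 1.05 in Del8 and at 1.32, 1.22 and 1.05 in WT. That at 50 to 55 Mb was below 1 in every library except WT replicate 1. Coverage was uneven on the other autosomes too. Their 431 windows ran from 0.360, 0.242 and 0.0930 in the lowest to 2.09, 2.07 and 2.06 in the highest in Del8. In WT they ran from 0.0392, 0.0361 and 0.288 to 2.18, 2.54 and 2.06. These windows come from 18 chromosomes. Whether coverage varied more within chromosome 8 than within another autosome was not tested.

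**Figure D2:**
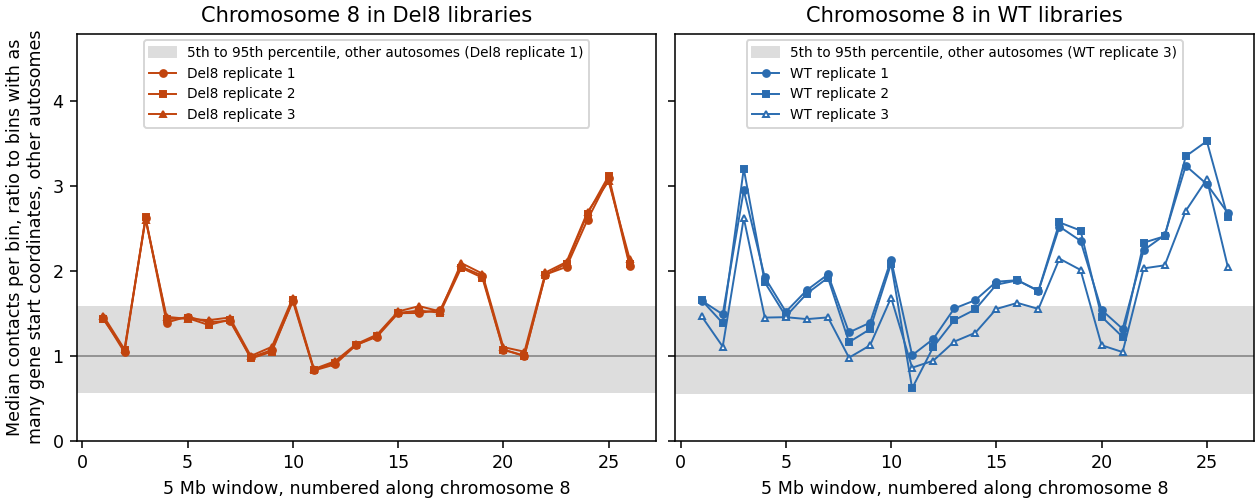
Gene-matched coverage ratio (y axis) of the 5 Mb windows of chromosome 8 in order along the chromosome (x axis), in Del8 libraries on the left and WT libraries on the right. The grey band spans the 5th to 95th percentile of windows on the other autosomes, and the highest window lies near 3 in all 6 libraries.

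The profile along the chromosome was nearly the same in Del8 and WT. Each library's window medians over usable bins were set on the log2 scale against that library's chromosome 8 median. The largest Del8 excess was at 120 to 125 Mb, where the window stood at 1.05, 1.05 and 0.996 in Del8 and at 0.80, 1.05 and 1.02 in WT, a difference of 0.08. The groups overlapped there, and WT replicate 1 was the low library. Windows at 25 to 30 Mb (0.07) and 20 to 25 Mb (0.05) followed. The lowest differences were at 60 to 65 Mb (-0.06), 95 to 100 Mb (-0.05) and 30 to 35 Mb (-0.04). Of these 6 windows the groups did not overlap at 25 to 30 Mb and at 60 to 65 Mb. Among the other windows they did not overlap at 35 to 40, 55 to 60 and 90 to 95 Mb, with differences of -0.03, 0.05 and -0.02. Against WT replicate 3 alone the largest excess, at 120 to 125 Mb, came to 0.01, and those at 25 to 30 Mb and 60 to 65 Mb came to 0.08 and -0.06.

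The bins just inside and just outside the limit of 20 contacts lay mostly in a stretch of near-empty bins between 20 and 25 Mb. The bin at 21500001 was just inside, with 72, 54 and 20 contacts in Del8 and 20, 20 and 44 in WT. The bin at 21600001 was just outside, with 57, 47 and 44 contacts in Del8 and 19, 26 and 44 in WT. The first bin of the chromosome with contacts, at 3050001, was left out although it held 1163, 894 and 792 contacts in Del8 and 654 in WT replicate 3, because it held 0 in WT replicates 1 and 2.

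Chromosome 8 had a smaller share of short bins than any other autosome in the libraries that lost many. It had 0, 0 and 10 short bins in Del8 replicates 1 to 3 and 158, 224 and 0 in WT replicates 1 to 3. These were 0.398% of its bins in Del8 replicate 3, 6.29% in WT replicate 1 and 8.92% in WT replicate 2. On the other autosomes the shares were 8.29%, 36.5% and 36.6% in those libraries. In all, 249 bins of chromosome 8 were short in WT replicate 1 or 2, and 133 of them in both. Their median count was 256 contacts in WT replicate 1 and 213 in WT replicate 2, where the same bins held 876 and 906.5 in WT replicate 3. Few of them held a gene start coordinate, 6.96% in WT replicate 1 and 4.46% in WT replicate 2, against 28.5% and 29.4% of the other bins of the chromosome.

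The loss followed a bin's coverage, and at like coverage chromosome 8 lost a smaller share than the other autosomes. Of the 94 bins of chromosome 8 with 700 to under 900 contacts in WT replicate 3, 70.2% were short in WT replicate 1 and 86.2% in WT replicate 2, against 92.7% and 94.6% of 6535 bins elsewhere. Of 264 bins with 900 to under 1100 contacts, 24.6% and 42.8% were short, against 61.5% and 63.8% of 5594 bins elsewhere. Of 258 bins with 1100 to under 1300 contacts, 2.33% and 3.49% were short, against 20.5% and 17.9% elsewhere. Above that, no bin of chromosome 8 was short. In the lowest class, under 300 contacts, none of its 24 bins was short. The loss of weakly covered bins thus moved with the higher ratio of chromosome 8 in WT replicates 1 and 2. Its part in that ratio was not tested.

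**Figure D3:**
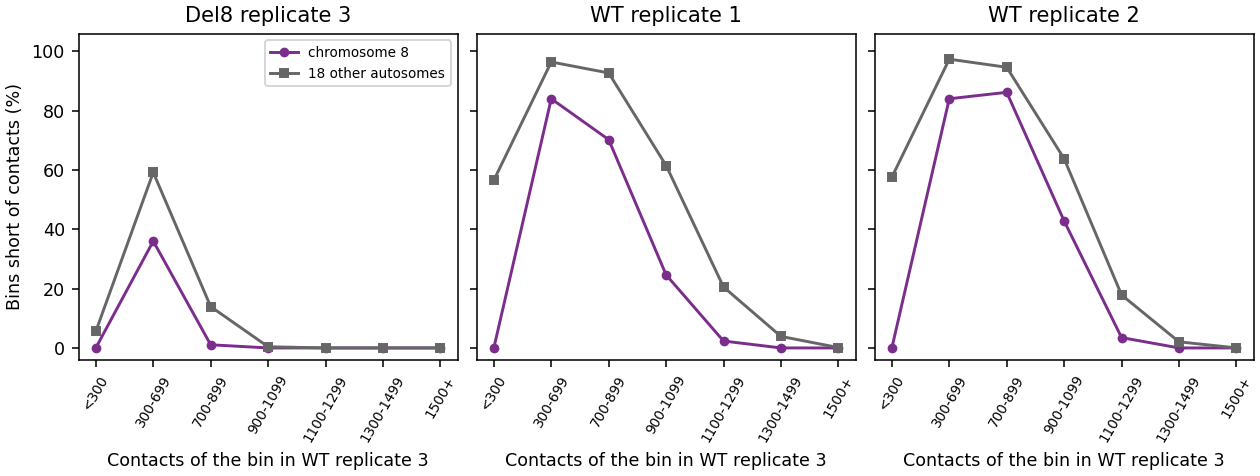
Share of bins that were short of contacts (y axis) by their contacts in WT replicate 3 (x axis), for chromosome 8 and the 18 other autosomes, in the libraries with short bins on chromosome 8. The shares fall to 0 on chromosome 8 from 1300 contacts up, and the purple points of chromosome 8 lie below or level with the grey ones. Near-empty bins, which fall in the class under 300 contacts, could not be called short.

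The raised level held at every distance. Contact per available pair of bins on chromosome 8, relative to the other autosomes, at 100 kb to under 500 kb was 1.47, 1.48 and 1.54 in Del8 and 1.86, 1.82 and 1.496 in WT. At 10 Mb to under 50 Mb it was 1.68, 1.70 and 1.80 in Del8 and 2.25, 2.21 and 1.74 in WT. Over bins with at least 20 contacts, the ratio was higher at long than at short distance in all 6 libraries. Among usable bins it was flatter, between 1.15 and 1.27 in Del8 and between 1.15 and 1.37 in WT over the 4 distance bands. There the direction turned in WT replicates 1 and 2, with 1.233 and 1.212 at 100 kb to under 500 kb against 1.226 and 1.200 at 10 Mb to under 50 Mb. Contacts within a single bin were 25.8, 25.6 and 25.6% of the contacts of chromosome 8 in Del8, against 29.1, 28.8 and 21.3% in WT, so WT replicate 3 was the lowest and the other WT libraries the highest.

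All Del8 libraries had a larger share of their chromosome 8 contact at 500 kb to under 2 Mb, and a smaller one at 10 Mb to under 50 Mb, than all WT libraries. Shares were taken of the contacts between usable bins 100 kb to under 50 Mb apart, so that the level of the chromosome cancels. At 500 kb to under 2 Mb the share was 27.6, 27.5 and 27.7% in Del8 and 25.2, 25.05 and 24.9% in WT. All Del8 libraries were above all WT libraries, and the means were 27.6 ± 0.096% and 25.04 ± 0.157% (SD, n = 3 each), a difference of 2.56 percentage points (two-sided exact permutation p = 0.10, the smallest that 3 against 3 allows; adjusted over the 4 bands p = 0.20).

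At 10 Mb to under 50 Mb the share was 18.1, 18.95 and 18.1% in Del8 and 20.4, 20.7 and 23.4% in WT. The groups did not overlap, and WT replicate 3 was the highest (difference -3.10 points, exact permutation p = 0.10, adjusted 0.20; -4.97 points without WT replicates 1 and 2). At 100 kb to under 500 kb the shares were 40.9, 39.7 and 40.8% in Del8 and 40.8, 40.6 and 36.8% in WT. These overlapped, and the low value was WT replicate 3 (difference 1.10 points, exact permutation p = 0.50); without that library the difference was -0.193, and without WT replicates 1 and 2 it was 3.67. At 2 Mb to under 10 Mb they overlapped as well, at 13.4, 13.8 and 13.4% in Del8 and 13.6, 13.7 and 15.0% in WT (exact permutation p = 0.30).

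The other autosomes moved the same way, and slightly further at 500 kb to under 2 Mb. Their mean share there was 27.0, 27.0 and 27.1% in Del8 and 23.8, 23.9 and 24.1% in WT. Chromosome 8 thus lay 0.617, 0.502 and 0.613 points above them in Del8 and 1.34, 1.16 and 0.752 points above them in WT. The groups did not overlap in this distance, which was smaller in Del8 by a difference of -0.508 points (exact permutation p = 0.10, adjusted 0.10), or of -0.175 without WT replicates 1 and 2. At 10 Mb to under 50 Mb chromosome 8 exceeded the other autosomes by 4.09, 4.16 and 4.10 points in Del8 and by 4.24, 4.24 and 4.76 points in WT (difference -0.30, exact permutation p = 0.10, adjusted 0.10). That difference turned to 0.209 with shares of mean contact per available pair, a measure added after the data were seen, and to 0.038 with balanced contacts, and it was -0.649 without WT replicates 1 and 2.

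Per available pair, chromosome 8 was among the highest autosomes at 500 kb to under 2 Mb and among the middle ones at 10 Mb to under 50 Mb. At 500 kb to under 2 Mb its share ranked 3 of 19 in each Del8 library and 2 of 19 in each WT library. At 2 Mb to under 10 Mb it ranked 15 to 16 in Del8 and 18 to 19 in WT, near the low end. At 10 Mb to under 50 Mb its share was 22.6, 23.6 and 22.6% in Del8 and 25.2, 25.5 and 28.6% in WT, against means of 22.6, 23.7 and 22.6% and of 25.5, 25.8 and 28.6% for the other autosomes. The decay of contact with distance, as the slope of log10 contact over log10 distance between 500 kb and 10 Mb, was -1.33, -1.31 and -1.34 on chromosome 8 in Del8 and -1.24, -1.23 and -1.18 in WT. All Del8 slopes were steeper than all WT slopes, as they were on every other autosome. The Del8 slopes ranked 3 to 4 from the steepest among the 19 autosomes and the WT slopes 2.

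**Figure D4:**
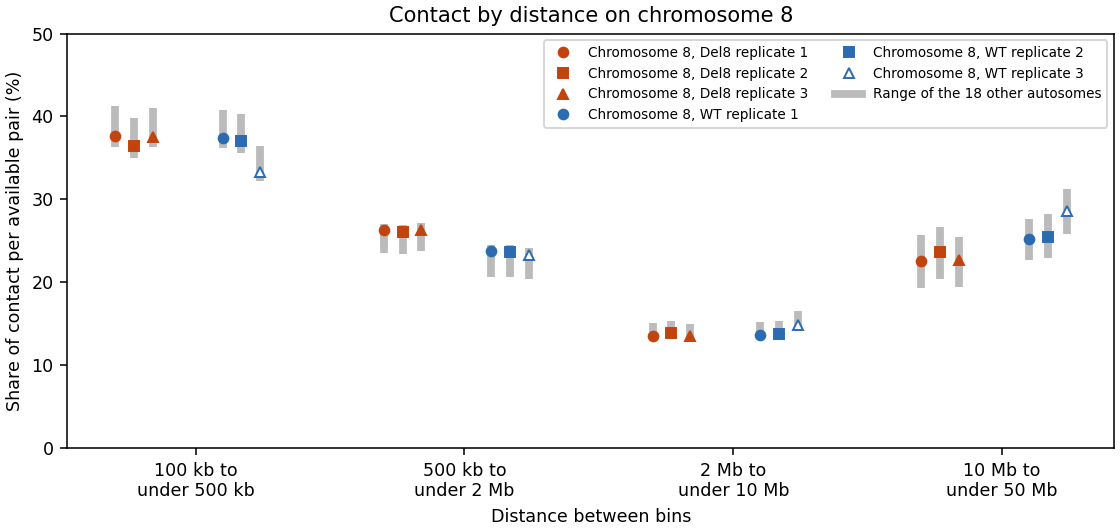
Share of mean contact per available pair of usable bins (y axis) in 4 distance bands (x axis) on chromosome 8, with Del8 libraries left of WT libraries in each band, and the range of the 18 other autosomes in grey. At 500 kb to under 2 Mb the Del8 points lie at 26.3, 26.0 and 26.3% and the WT points at 23.8, 23.7 and 23.3%.

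Boundaries on chromosome 8 were shallower in all 3 Del8 libraries than in all 3 WT libraries, as they were in the mean of the other autosomes. On chromosomes 3 and 17 the groups overlapped. The insulation score takes the contacts of a balanced map that span a bin within 500 kb on either side, as log2 of their mean over the chromosome's mean, so a high score means that contacts cross the bin freely. Boundaries were local minima of the score on the map summed over all 6 libraries. Of the 2510 bins, 2034 had a score and 103 were boundaries. Boundary strength was taken over those of the 103 that also had a score 250 kb to either side. Their mean score minus that at both sides was -0.46, -0.45 and -0.46 in Del8 and -0.59, -0.58 and -0.52 in WT. The dip was shallower in every Del8 library than in every WT library, with means of -0.457 ± 0.003 and -0.561 ± 0.041 (SD, n = 3 each; difference 0.10, two-sided exact permutation p = 0.10). Against WT replicate 3 alone the difference was 0.059. On the other autosomes the means were -0.467 and -0.551. Chromosome 8 minus the other autosomes came to 0.011, 0.0060 and 0.013 in Del8 and to -0.021, -0.012 and 0.00096 in WT. These groups did not overlap, with a difference of 0.021 (exact permutation p = 0.10), or of 0.0090 without WT replicates 1 and 2.

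Of the 103 boundaries of chromosome 8, 55 (53.4%) had a higher score in Del8 and 17 (16.5%) a lower one (limma, Benjamini-Hochberg adjusted p under 0.05). Over all 1331 autosomal boundaries, 49.5% were called higher and 16% lower, so chromosome 8 was near the background in both directions. Its median difference was 0.10, beside 0.09 over all boundaries. Without WT replicates 1 and 2 the medians were 0.066 on chromosome 8 and 0.060 over all boundaries. That fit rests on 1 WT library, so only the size of the difference is given. The 55 weakened boundaries had a median difference of 0.23, or 1.17-fold, and the 17 strengthened ones of -0.18, or 0.884-fold. Groups did not overlap at 69 boundaries (67.0%), beside 65.7% of all boundaries, and 52 of the 103 were apart with Del8 higher, beside 48.8% of all boundaries. After every library was centred on its own boundary median, the split on chromosome 8 was 37 higher (35.9%) and 33 lower (32.0%). Over all boundaries it was 31.8% and 31.6%. With all bins of 20 or more contacts in place of usable bins, limma called 0 of 118 boundaries, 46 of which had an unadjusted p under 0.05. Over all autosomes it called 0 of 1911, 304 of which had one, so the lack of calls was not particular to chromosome 8.

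**Figure D5:**
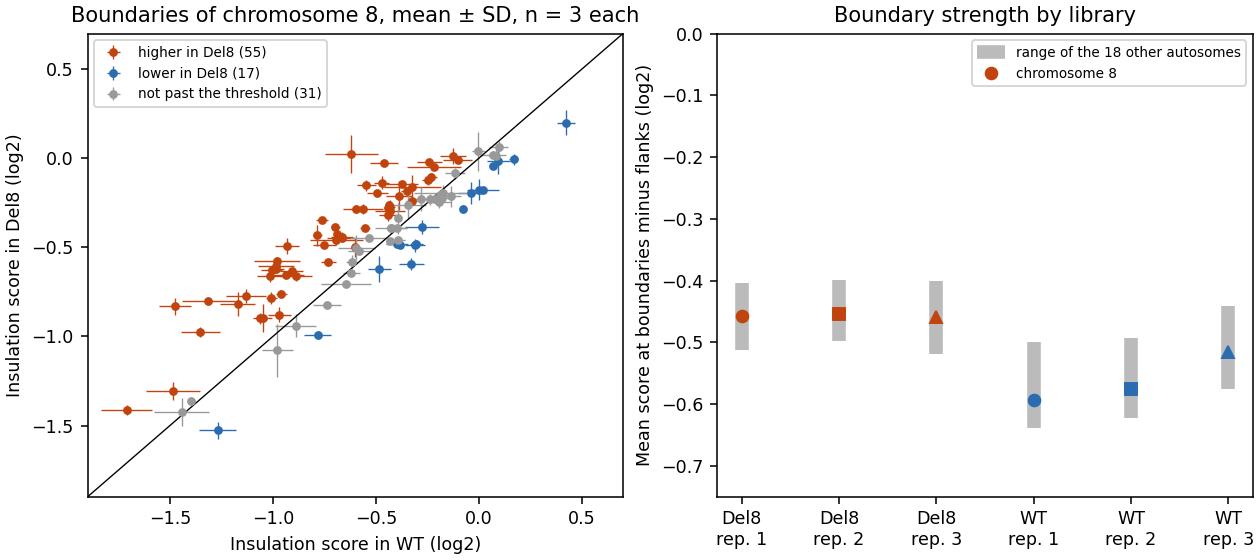
Left, insulation score at the 103 boundaries of chromosome 8 in Del8 (y axis) against WT (x axis), mean ± SD of 3 libraries each, coloured by limma call, with 55 points called above and 17 called below the diagonal of equal scores. Right, mean score at boundaries minus flanks by library, where chromosome 8 lies within the grey range of the 18 other autosomes in all 6 libraries.

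The boundaries with the largest change lay along the whole chromosome. The boundary at chr8:60450001-60500000, with no protein-coding start coordinate, scored 0.03, -0.09 and 0.13 in Del8 and -0.77, -0.53 and -0.56 in WT. It lay near the chromosome mean in Del8 and below it in all WT libraries (difference 0.64, SE 0.06, 1.56-fold, limma adjusted p = 5.6e-06). The boundary at chr8:95900001-95950000, also without a gene, scored -0.80, -0.80 and -0.89 in Del8 and -1.55, -1.47 and -1.40 in WT. It remained a deep minimum in every library and was shallower in all 3 Del8 libraries (difference 0.64, SE 0.04, limma adjusted p = 3.1e-07).

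Genes stood at several of the other weakened boundaries. The boundary at chr8:75000001-75050000 holds Tom1, an endosomal sorting adaptor whose promoter is shown above, and scored -0.54, -0.50 and -0.44 in Del8 and -0.995, -0.93 and -0.88 in WT (difference 0.44, SE 0.04, limma adjusted p = 1.8e-06). The boundary at chr8:120650001-120700000 holds Emc8, a subunit of a membrane protein insertase, and Cox4i1, a subunit of cytochrome c oxidase. It scored -0.02, -0.03 and -0.02 in Del8 and -0.47, -0.52 and -0.39 in WT, so that it lay near the chromosome mean in Del8 and below it in WT (difference 0.44, SE 0.03, limma adjusted p = 1.5e-06). The boundary of Dusp26, a protein phosphatase, and 3 without a gene, at 41400001, 126950001 and 25200001, differed by 0.40, 0.51, 0.41 and 0.39. The Del8 and WT libraries did not overlap at these 8 boundaries by the choice itself, since only such boundaries could be named.

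A smaller set of boundaries deepened in Del8. The boundary at chr8:25700001-25750000 holds Plpp5, a lipid phosphatase, and Ddhd2, a lipase, and scored -0.63, -0.56 and -0.59 in Del8 and -0.34, -0.38 and -0.26 in WT. The difference was -0.27 (SE 0.03, 0.831-fold, limma adjusted p = 4.8e-05). The boundaries named here were also chosen among those whose groups did not overlap. The boundary of Rhou, a small GTPase, at chr8:123650001-123700000 was among the deepest of the chromosome and scored -1.53, -1.48 and -1.57 in Del8 and -1.25, -1.37 and -1.19 in WT (difference -0.26, SE 0.04, limma adjusted p = 0.00032). Its direction turned, to 0.17, with all bins of 20 or more contacts. The boundary of Rbpms, an RNA-binding protein, and those at 7900001 and 46950001 differed by -0.21, -0.23 and -0.21. Of these, Rbpms turned to 0.029 with a 1 Mb square, and 7900001 to 0.38 with all bins of 20 or more contacts. Boundary bins held a gene start coordinate more often than scored bins of the chromosome in general, 59.2% against 31.2%.

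Across all scored bins of chromosome 8, 651 rose and 620 fell (limma adjusted p under 0.05), which is 32.0% and 30.5% beside 32.4% and 30.3% of all 22039 scored autosomal bins. Groups did not overlap in 1394 of the 2034 bins (68.5%), beside 67% of all scored bins, and 693 of the 2034 were apart with Del8 higher, beside 34.2% of all scored bins. Without WT replicates 1 and 2 the median difference was -0.0068 on chromosome 8 and 0.00074 over all scored bins. Of 58 genes in 7 lists, 52 bins had a score, of which 22 rose, 10 fell and 20 did not pass the test, with a median difference of 0.04. Each gene was read in the bin of its lower coordinate, which is the 3′ end for genes on the minus strand. Adjoining bins, such as those of Klf1 and Junb, share most of their contacts, so the counted bins are not all independent. The lists were drawn up with earlier results of these data known.

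Among 6 pluripotency and early embryo genes, the bins of Klf2 and Cdh1 rose, that of Sall1 fell and the other 3 did not pass. Klf2, a Krüppel-like factor of naive pluripotency, scored -0.08, -0.12 and -0.07 in Del8 and -0.31, -0.32 and -0.29 in WT (difference 0.21, limma adjusted p = 7.2e-05). Sall1, a zinc finger transcription factor, scored -0.0025, -0.06 and -0.05 in Del8 and 0.19, 0.15 and 0.16 in WT (difference -0.21, limma adjusted p = 0.00011). In both bins the groups did not overlap. Cdh1, which encodes E-cadherin, differed by 0.11, and Zfp42, a marker gene of naive ES cells also called Rex1, by -0.09 without passing.

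Of 10 chromatin and replication genes, 6 rose, none fell and 4 did not pass. Sin3b, the scaffold of a histone deacetylase complex, lay in a boundary and had the largest rise, with scores of -0.66, -0.63 and -0.69 in Del8 and -0.98, -1.09 and -0.97 in WT (difference 0.35, SE 0.04, limma adjusted p = 1.4e-05). Its promoter, shown above, holds the motif core on the strand of the gene. Junb, a subunit of the transcription factor AP-1, differed by 0.34, Mcm5, a subunit of the replicative helicase, by 0.19, and Brd7, a bromodomain protein, by 0.18. With a 250 kb square Mcm5 came to -0.0052. The Ctcf gene itself lay in a bin that scored -0.24, -0.27 and -0.22 in Del8 and -0.32, -0.31 and -0.29 in WT. Its rise of 0.07 (SE 0.03, limma adjusted p = 0.048) was small and close to the threshold.

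The bins of lineage transcription factors went both ways. Of 11 bins with 13 genes, 6 rose, 4 fell and 1 did not pass. The largest rise was in the bin of Klf1, a regulator of erythroid genes, which scored -0.82, -0.82 and -0.76 in Del8 and -1.28, -1.21 and -1.10 in WT (difference 0.40, SE 0.04, limma adjusted p = 1.7e-05). Hand2, which acts in heart and limb development, rose by 0.26, and Irf8, a myeloid factor, by 0.25. The bin of Sox1, a marker of neural progenitors, fell by 0.19 on the log2 scale (limma adjusted p = 0.00016). In the Iroquois cluster, a group of homeobox genes, Irx6 differed by 0.22, Irx5 by 0.08 and Irx3 by 0.0040, of which Irx3 did not pass.

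In the signalling list, 2 of 8 scored bins rose, 2 fell and 4 did not pass. Angpt2, an angiopoietin ligand, differed by 0.25, and Itgb1, an integrin receptor subunit, by 0.09. The ligand genes Vegfc and Efnb2, which encode a lymphatic growth factor and an ephrin, differed by -0.20 and -0.17. The bin of the insulin receptor gene Insr had no score. Among the basement membrane and adhesion genes 3 bins rose, 1 fell and 2 did not pass, with Col4a1 and Col4a2, the paired genes of collagen IV, at 0.20 and 0.16, the polarity gene Pard3 at 0.16 and the cadherin Fat1 at -0.11. Of 9 scored bins of long genes, 1 rose, 2 fell and 6 did not pass. Cdh13 and Csmd1 differed by -0.16 and -0.09 and Disc1 by 0.09, while the bin of Sgcz had no score. Cdh13 turned to 0.0068 with a 250 kb square, and Disc1 to -0.062 with a 1 Mb square. Both bins of the metallothioneins, small metal-binding proteins, rose, by 0.14 for Mt1, Mt2 and Mt3 and by 0.10 for Mt4. These bins adjoin and share most of their contacts, so they are not separate observations.

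Contacts between pairs of 100 kb bins of chromosome 8 changed in small numbers in both directions. The level of the chromosome and the distance decay were taken out in each library, but the coverage of single bins was not. Of 16131 pairs, 766 (4.75%) were higher in Del8 and 649 (4.02%) lower (edgeR quasi-likelihood test, Benjamini-Hochberg adjusted p under 0.05). Over all 152437 autosomal pairs 4.7% were higher and 4.13% lower, so these shares were near the background too. The median of the pairs called higher was 0.62 on the log2 scale and that of the pairs called lower was -0.57. TMM factors, which take out neither the chromosome nor the distance, gave 538 higher and 1141 lower pairs. These were 3.34% and 7.07% of the pairs of chromosome 8, beside 4.62% and 5.43% of all pairs. DESeq2 size factors in edgeR gave 519 (3.22%) and 1180 (7.32%), beside 4.48% and 5.61% of all pairs. DESeq2 with the main offsets called 306 (1.90%) and 252 (1.56%) pairs, beside 1.66% and 1.63% of all pairs. Without WT replicates 1 and 2 the median log2 difference in edgeR was 0.013 on chromosome 8 and 0.019 over all pairs.

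Pairs with a boundary between their bins were set beside pairs with none between, in 3 distance classes. A boundary inside either bin was not counted, so pairs with none between need not lie within a domain. Pairs 100 kb apart adjoin and always had none between, so the classes also differ in distance. At 100 to 400 kb, among the 567 pairs separated by a boundary, 13.2% were higher and 0.882% lower, with a median log2 difference of 0.13. Among 3363 pairs with none between them, 7.02% were higher and 6.30% lower, with a median of -0.03. At 500 to 900 kb, 6.38% of 2571 pairs across boundaries were higher and 2.76% lower, against 6.28% and 8.40% of 2166 pairs with none between. At 1000 to 2000 kb, 2.13% of 6198 pairs across boundaries were higher and 1.63% lower, against 1.82% and 6.16% of 1266 pairs with none between. Pairs overlap in their bins and were called on the same maps as the boundaries, and the difference between these classes was not tested.

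Of the 5 pairs with the largest rises, 3 lay between 20 and 25 Mb. The pair of chr8:22900001-23000000, with the erythrocyte ankyrin gene Ank1, and chr8:24500001-24600000, with the tryptophan-degrading enzyme genes Ido1 and Ido2, had 104, 55 and 50 contacts in Del8 and 14, 14 and 15 in WT. All Del8 counts were above all WT counts, and after normalization the pair was 2.84-fold higher (log2 1.51, SE 0.25, edgeR adjusted p = 3.0e-06). The pair of 23100001 and 23800001, the first with the homeobox gene Nkx6-3 and the lipid synthesis gene Gpat4, had 125, 101 and 78 contacts in Del8 and 18, 10 and 38 in WT (2.75-fold, log2 1.46, SE 0.21, edgeR adjusted p = 4.9e-08). The pair of 22600001, with Ikbkb, a kinase of NF-kB signalling, and 23900001 had 42, 39 and 15 contacts in Del8 and 3, 10 and 6 in WT (2.92-fold, edgeR adjusted p = 0.0025).

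Of the 594 pairs at 20 to 25 Mb, 70 were higher and 36 lower, 17.8% in all, the highest share of the 26 windows, which was noticed after the values were seen. In that window 3.26% of bins were short in Del8 replicate 3, 13.0% in WT replicate 1 and 10.9% in WT replicate 2. Pairs were formed from usable bins alone, so these short bins were in none of the 594 pairs. The reason for the high share was not tested. The other pairs with large rises joined 33700001, with Rbpms and the transcription factor gene Gtf2e2, to 34400001 (2.82-fold), and 4200001, with the RNA-binding protein gene Elavl1, to 4800001 (2.80-fold).

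The largest falls were at long distance and at low counts. The pair of chr8:31400001-31500000 and chr8:33100001-33200000, without genes, had 13, 8 and 14 contacts in Del8 and 18, 23 and 24 in WT. All Del8 counts were lower although the Del8 libraries were deeper, and the normalized ratio was 0.324 (log2 -1.63, SE 0.35, edgeR adjusted p = 0.00041). The pair of 96100001 and 97900001 had 15, 12 and 18 contacts in Del8 and 29, 19 and 28 in WT (log2 -1.49, SE 0.32, edgeR adjusted p = 0.00034). The pair of 96100001 with 97500001 fell by 1.43 on the log2 scale. The pairs 62000001 with 63900001 and 118400001 with 120300001 had 3 to 21 contacts in every library and differed by -1.53 and -1.45.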

How the data were processed

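What the authors deposited were raw counts of contacts, 1 table per library, between 50 kb bins of the same chromosome. Positions refer to mm10 (per the submitters' processing notes). For the aligner and the filters on read pairs, details were not given in the sources used here. Libraries were grouped by their genotype label.

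The members and gene lists were chosen with earlier results of these data known. Coverage was the sum of a bin's contacts on its own chromosome. Maps of usable bins (scaled coverage also above 0.1 of the library's own scale) were balanced per chromosome by iterative correction. Insulation scores needed 50% of the 500 kb square, and boundaries a prominence of 0.2. They were tested with limma 3.58.1, and 100 kb bin pairs up to 2 Mb apart with a mean count of 10 or more with edgeR 4.0.16, using offsets by chromosome and distance. DESeq2 1.42.0 was an alternative. Both fits covered all autosomes and were tested on simulated data. Single values were compared by exact permutation tests. The mean count per tested pair of chromosome 8 was 82.0 to 133 in Del8 and 58.9 to 73.1 in WT libraries. These counts limit precision, as do 3 libraries a group.

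Named items followed a fixed rule. They were the 8 boundaries with the largest rise, the 5 with the largest fall and the 5 pairs each way. The 3 windows each way and up to 4 genes of each list were named as well. Boundaries could be named only if limma called them and their groups did not overlap. The alternatives changed the bins used, the balancing, the size of the square, the prominence, the centring, the normalization, the count filter, the tool and the replicates. Genes were placed by RefSeq on GRCm38.p6, in a table that gives no strand. Chromosome X and the mitochondrial genome were not used here.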

Additional observations from a re-analysis of the deposited data

How the results depend on the processing

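Coverage of chromosome 8 relative to the other autosomes stayed above 1 under every alternative tried. The Del8 mean was 1.26 over usable bins, 1.60 with no minimum and 1.56 as a ratio of mean coverage; the WT mean was 1.33 over usable bins, 1.82 as a ratio of means and 1.57 without WT replicates 1 and 2. The difference in the share at 100 kb to under 500 kb ranged from -0.193 (without WT replicate 3) to 1.80 with a library left out, and chromosome 8 minus the other autosomes at 10 Mb to under 50 Mb turned to 0.038 with balanced contacts and 0.209 per available pair. With bins of 20 or more contacts no boundary was called higher or lower (0 and 0), on chromosome 8 or over all autosomes. Lower boundaries numbered 11 with a 250 kb square (6.71%, beside 12.3% of all boundaries) and 6 with a 1 Mb square (8.96%, beside 18.2%). With centred libraries they numbered 33 (32.0%, beside 31.6%). Pairs called higher numbered 480 to 609 with a library left out, 270 without WT replicates 1 and 2 and 306 by DESeq2. Pairs called lower numbered 369 to 566 with a library left out (369 without Del8 replicate 1, 430 without Del8 replicate 2), 210 without WT replicates 1 and 2, 252 by DESeq2, 1141 with TMM factors and 1180 with DESeq2 size factors.

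Among named bins, the direction turned at 123650001 (0.17) and 7900001 (0.38) with bins of 20 or more contacts and at 33750001 (0.029) with a 1 Mb square. It turned for Mcm5 (-0.0052), Cdh13 (0.0068) and Wwox (0.010) with a 250 kb square, for Disc1 (-0.062) and Wwox (0.023) with a 1 Mb square, for Zfp42 (0.041) without WT replicates 1 and 2, and for Wwox with a library left out (-0.087 to 0.0066, the highest without WT replicate 3). The cause of these changes was not tested. In 84 other cases, each of them 1 named item under 1 alternative, the direction held and the call was lost. The same item can appear in several cases, and genes that share a bin were counted apart. The replicate numbers did not pair the libraries, as the correlations of same-numbered deviations were between -0.085 and 0.004; with the replicate number as a block, 55 boundaries were higher and 17 lower, and 703 pairs higher and 599 lower. With 3 libraries a group no exact test could go below p = 0.10, and the groups differ in depth.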

Other observations

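The boundaries of chromosome 8 were called in both directions in each stretch of 25 Mb up to 125 Mb. Over all autosomal boundaries, 49.5% were called higher in Del8 and 16% lower. Between 75 and 100 Mb, the insulation score was called higher in Del8 at 16 of 22 boundaries and lower at 1, with a median difference of 0.15. Between 25 and 50 Mb, 10 of 23 were higher and 4 lower, with a median of 0.03. The remaining stretches had 8 of 16 higher and 4 lower up to 25 Mb, 8 of 19 and 4 at 50 to 75 Mb, 11 of 21 and 4 at 100 to 125 Mb, and 2 of 2 higher and 0 lower beyond 125 Mb. Whether these stretches differ from each other was not tested.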
